A study of Mus musculus with 2 samples.

Results

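The macrophage colony-stimulating factors and their receptors are a set of 6 genes chosen by symbol from the 32285 genes listed in both deposited matrices. They are the ligand genes Csf1 and Il34 and the receptor genes Csf1r, Csf2ra, Csf2rb and Csf3r, and all 6 were found. Single-cell 3′ RNA-seq was made from the stromal vascular fraction, the cells left once mature adipocytes are removed from digested epididymal white fat, of mice fed a high-fat diet for 10 weeks. The CKO library came from mice with a myeloid conditional knockout of Camk2d (labelled Camk2d-CKO), a gene for the delta form of a calcium-activated kinase, and the wild-type library from mice without that deletion. The labels name neither the Cre driver nor the excised part of Camk2d nor the number of animals behind a library, and a description field names embryonic hindlimb where every other field names fat. Each genotype has 1 library, so differences between genotypes carry no test, and the 95% intervals given here cover counting error only.

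Csf1 encodes macrophage colony-stimulating factor, which keeps macrophages alive and dividing, and Il34 encodes a second ligand of the same receptor. That receptor, the tyrosine kinase encoded by Csf1r, is the defining growth factor receptor of macrophages and monocytes, and stromal cells are a known source of its ligands in many tissues. Csf2ra and Csf2rb encode the alpha chain and the shared beta chain of the receptor for granulocyte-macrophage colony-stimulating factor, and the beta chain also serves interleukin 3 and interleukin 5. Csf3r encodes the receptor for granulocyte colony-stimulating factor, best known from neutrophils.

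The promoter of the main stromal ligand and those of 2 receptors of myeloid cells are shown because the levels described here turn on a stromal source and on myeloid receiving cells. RefSeq promoters are printed for 3 of the 6 genes, and any promoter of Csf1r was left out by choice and is not reported here. Each is the 250 bases before the RefSeq start (GRCm38.p6), printed 5′ to 3′ on the strand of the gene. The windows are chr3:107760470-107760719 (minus strand) for Csf1, chr19:61228419-61228668 (minus strand) for Csf2ra and chr4:126024409-126024658 (plus strand) for Csf3r. Capitals mark matches to a PU.1 core (GAGGAAG) or to the NF-kB consensus.
Csf1: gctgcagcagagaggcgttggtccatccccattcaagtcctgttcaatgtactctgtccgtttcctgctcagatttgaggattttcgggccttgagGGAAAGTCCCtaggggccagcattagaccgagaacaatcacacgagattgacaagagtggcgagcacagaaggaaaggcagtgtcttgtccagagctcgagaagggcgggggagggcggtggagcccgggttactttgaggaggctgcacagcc
Csf2ra: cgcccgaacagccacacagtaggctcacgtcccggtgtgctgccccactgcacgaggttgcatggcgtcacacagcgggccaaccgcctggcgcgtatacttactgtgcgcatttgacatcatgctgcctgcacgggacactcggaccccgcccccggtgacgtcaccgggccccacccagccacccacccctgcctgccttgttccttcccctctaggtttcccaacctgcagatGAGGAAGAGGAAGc
Csf3r: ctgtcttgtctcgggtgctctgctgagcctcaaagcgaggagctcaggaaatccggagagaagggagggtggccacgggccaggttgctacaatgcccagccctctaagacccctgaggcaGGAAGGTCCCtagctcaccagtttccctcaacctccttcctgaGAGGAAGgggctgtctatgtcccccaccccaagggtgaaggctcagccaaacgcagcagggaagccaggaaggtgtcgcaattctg
The Csf1 window held 1 NF-kB consensus match, the Csf2ra window held 2 PU.1 core matches that overlap each other, and the Csf3r window held 1 NF-kB match followed by 1 PU.1 core match. Both strands were searched. Among 32851 promoters of the same length, 10.6% held the PU.1 core and 9.55% the NF-kB consensus. A C/EBP palindrome (TTGCNNAA, in 9.56% of promoters) and an AP-1 site (TGANTCA, in 6.75%) had no match in these 3 windows. A match describes the letters only.

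The CKO library held 10631 barcodes and the wild-type library 15555, of which 48 barcode sequences were shared. About 10000 to 13000 cells were loaded per channel per the labels, fewer than the wild-type barcodes, and the lowest UMI total of a barcode was 500 in the CKO and 1276 in the wild-type library; what this does to the wild-type shares and levels was not tested. After filtering, 9200 CKO and 14854 wild-type cells were kept, with medians of 8257 and 3122.5 unique molecular identifiers (UMIs) per cell. Cells were gated one by one on marker genes that exclude the 6 genes, and a type is named here with the ending -like. The largest gates were progenitor-like cells (fibroblasts and adipose progenitors; 3790 CKO and 3034 wild-type cells) and macrophage-like cells (1260 and 2477), while 20.4% of CKO and 43.5% of wild-type cells took no type. Levels are summed UMIs of a gene as counts per 1000000 UMIs of the type (CPM), and a gene was counted as higher or lower when the libraries differed by at least 1.5-fold at a mean of 10 CPM and 30 UMIs. Camk2d itself was at 24.5 CPM in CKO and 46.5 CPM in wild-type macrophage-like cells (log2 ratio -0.93, interval -1.10 to -0.76); where its counted 3′ end lies relative to the excised part is not known.

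Csf1 transcripts lay in the stroma. Progenitor-like cells carried 83.4% of the Csf1 UMIs of kept CKO cells and 70.8% of those of wild-type cells, against 46.4% and 28.0% of all UMIs. Csf1 (ENSMUSG00000014599, chromosome 3, 107741048 to 107760469, minus strand, mm10) was at 197 CPM in CKO and 190 CPM in wild-type progenitor-like cells, a log2 ratio of 0.06 (interval -0.00 to 0.11). The libraries were thus near level in the gate that held most Csf1 UMIs. Over all barcodes Csf1 was at 108 CPM in the CKO and 74.5 CPM in the wild-type library (log2 ratio 0.54). Progenitor-like cells were 41.2% of kept CKO and 20.4% of kept wild-type cells. Mesothelial-like cells, the lining cells of the fat pad, had 98.1 CPM in the CKO and 103 CPM in the wild-type library. Macrophage-like cells had 6.30 and 7.41 CPM, of which free RNA, transcripts of other cells caught in the droplet, was an estimated 60.4% in the CKO and 106% in the wild-type library. To compare shares of cells, each cell was thinned to 2000 UMIs and shallower cells were left out (265 CKO and 276 wild-type progenitor-like cells, 126 and 232 macrophage-like cells). Csf1 was then seen in 30.4% of CKO and 28.9% of wild-type progenitor-like cells, against 1.06% and 2.09% of macrophage-like cells. Without thinning the shares were 71.3% and 57.6% of progenitor-like cells, and 5.32% and 5.65% of macrophage-like cells.

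Gates with few cells also held Csf1, some above the mesothelial level. Mast-like cells had 12 UMIs in 34 CKO cells (187 CPM) and 5 UMIs in 23 wild-type cells (84.7 CPM), with an interval of the log2 ratio from -0.46 to 3.0. Cells gated as ILC2-like, the type 2 innate lymphoid cells, had 12 UMIs in the CKO (65.9 CPM) and 5 UMIs in the wild-type library (31.8 CPM). Neutrophil-like cells had 27 UMIs in 26 CKO cells, 19 of them in 3 cells, and 1 UMI in 6 wild-type cells. These counts are too few to order the libraries.

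**Figure D1:**
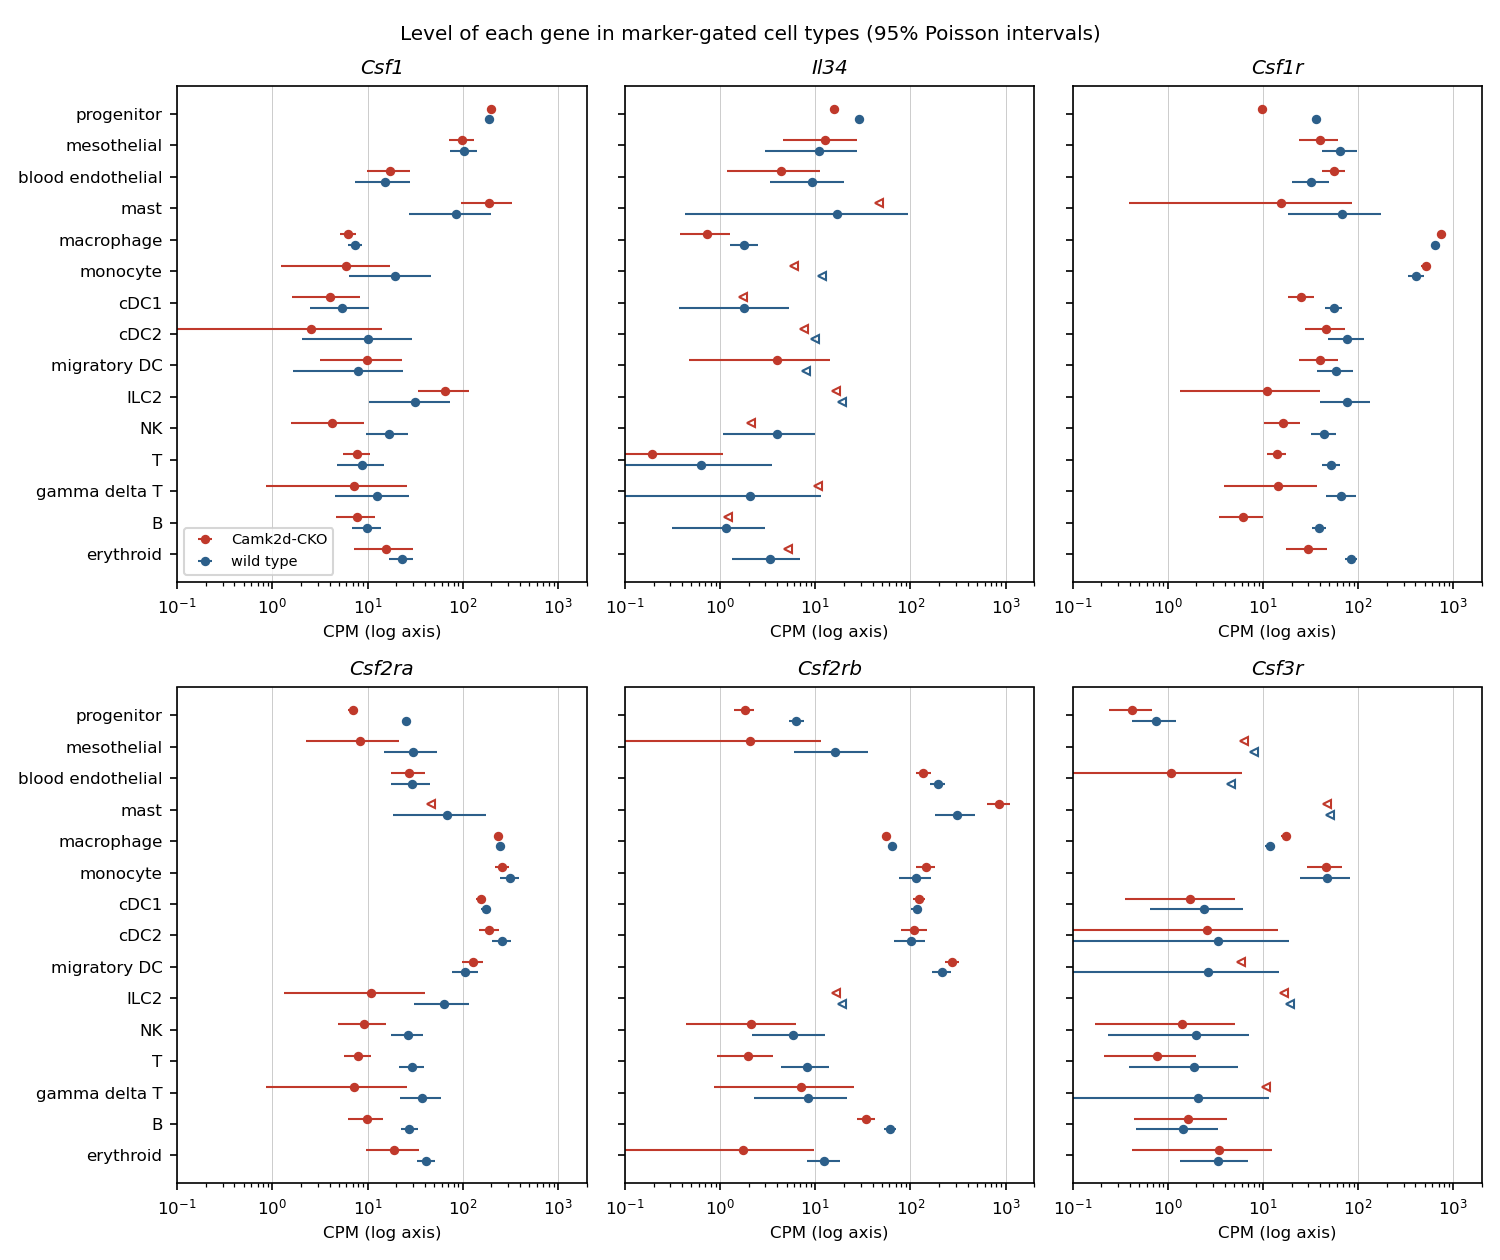
Level of each of the 6 genes (CPM, log axis) in 15 gated cell types, CKO in red above wild type in blue; bars are 95% Poisson intervals, cut at the axis edge, and open triangles mark the limit that a count of 0 allows. Csf1 and Il34 stand highest in progenitor-like cells, Csf1r in macrophage-like cells (736 and 645 CPM), and Csf2rb in mast-like cells (842 and 305 CPM).

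Within the progenitors, Csf1 was spread over all subgates while the level of Il34 was highest in the interstitial cells. The interstitial subgate (Dpp4, Pi16 and Cd55 among its markers) had 233 CPM of Csf1 in the CKO and 208 CPM in the wild-type library. The committed subgate (Pparg, Apod) had 183 and 176 CPM, and progenitor-like cells outside any subgate 185 and 169 CPM. The inflamed subgate (Ptx3, Cxcl1, Il6) had 210 CPM in 1069 CKO cells and 320 CPM in 142 wild-type cells, a log2 ratio of -0.61 (interval -0.77 to -0.44). This was the only subgate of the 4 in which Csf1 passed 1.5-fold, and the difference was -0.02 under a gate with less tolerance for markers of other lineages and -0.21 with cells taken from clusters. In that subgate 12.6% of 7713 genes were lower by at least 1.5-fold in the CKO library and 5.78% higher. Inside the wild-type library, inflamed cells had 1.90-fold as much Csf1 as progenitor-like cells outside any subgate, and inside the CKO library 1.13-fold.

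Il34 (ENSMUSG00000031750, chromosome 8, 110741829 to 110805924, minus strand) was at 15.6 CPM in CKO and 29.0 CPM in wild-type progenitor-like cells, a log2 ratio of -0.89 (interval -1.06 to -0.73). Interstitial progenitor-like cells had 61.9 CPM in the CKO and 60.2 CPM in the wild-type library (log2 ratio 0.04, interval -0.20 to 0.28). The libraries were therefore near level in the subgate with the highest Il34 level. That subgate held 227 of the 586 Il34 UMIs of progenitor-like cells in the CKO and 379 of 584 in the wild-type library. The inflamed subgate had 9.12 CPM (107 UMIs) in the CKO and 17.2 CPM (18 UMIs) in the wild-type library, a log2 ratio of -0.91 that was 0.014 with cells taken from clusters. The committed subgate had 11.9 and 16.8 CPM, and the remaining progenitor-like cells 11.3 and 14.0 CPM. Interstitial cells had 5.49-fold as much Il34 as the remaining progenitor-like cells in the CKO library and 4.31-fold in the wild-type library. The genes Gm15894 and Gm15895 overlap Il34 on the other strand, and whether counting used strand is not given in the sources used here.

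The mix of subgates differed between the libraries and moved with the pooled Il34 level. Interstitial cells were 8.13% of CKO and 25.4% of wild-type progenitor-like cells, and inflamed cells 28.2% and 4.68%. The weights used were shares of UMIs, by which interstitial cells were 9.76% in the CKO and 31.3% in the wild-type library. Inflamed cells were 31.2% and 5.20% by UMIs. With both libraries weighted to the wild-type mix, Il34 stood at 27.1 CPM in the CKO and 29.0 CPM in the wild-type library, a log2 ratio of -0.10. With both weighted to the CKO mix it stood at 15.6 and 19.7 CPM, a log2 ratio of -0.34. Both weighted ratios lie inside 1.5-fold, whereas the ratio at each library's own mix does not. Csf1 moved less under the same weighting, with log2 ratios of 0.08 at the wild-type mix and -0.16 at the CKO mix.

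**Figure D2:**
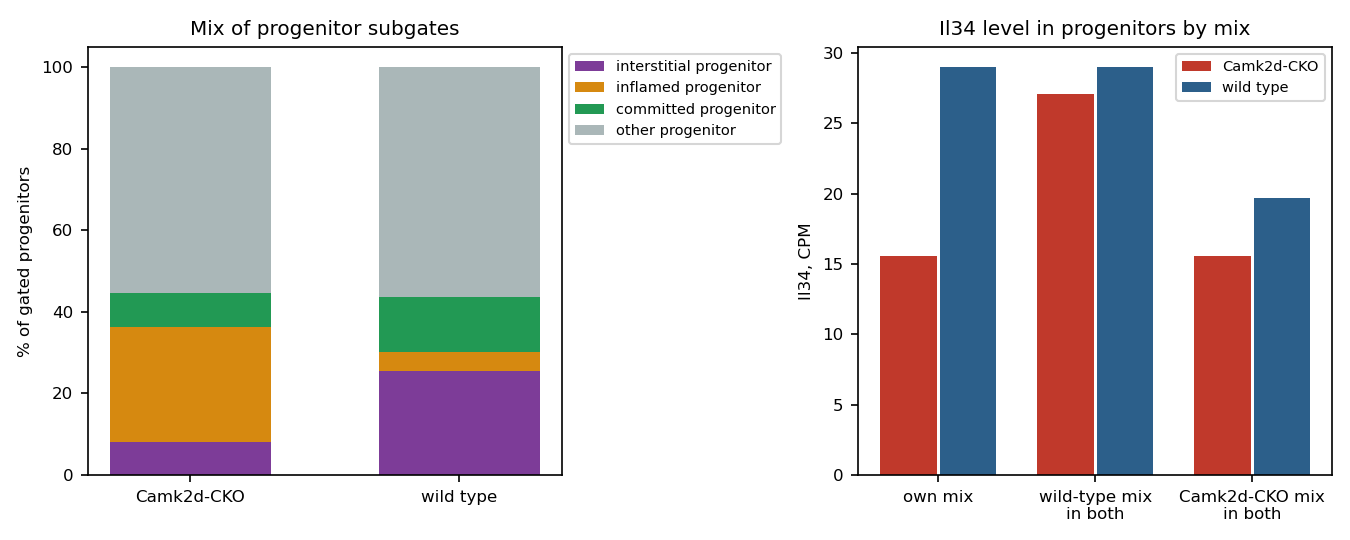
Left, share of gated progenitor cells in each subgate (%), CKO left of wild type. Right, Il34 level in progenitor-like cells (CPM) at each library's own mix and with both libraries weighted to either mix by shares of UMIs. The bars of 15.6 and 29.0 CPM at the own mix become 27.1 and 29.0 CPM at the wild-type mix.

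Both ligands were rarely seen in the same cell at this depth. In interstitial progenitor-like cells thinned to 2000 UMIs, Csf1 was seen in 33.7% of CKO and 34.7% of wild-type cells and Il34 in 11.9% and 10.6%, with 14 CKO and 28 wild-type cells left out as shallower. Both were seen in 2.72% of CKO and 3.63% of wild-type cells, and the product of the separate shares was 4.01% and 3.68%. In gates outside the progenitors Il34 rested on few UMIs. Mesothelial-like cells had 12.5 CPM (6 UMIs) in the CKO and 10.9 CPM (4 UMIs) in the wild-type library. Pericyte-like cells had 131 CPM in the CKO library (5 UMIs in 11 cells, interval 42.5 to 306 CPM). In the wild-type library they had 51.3 CPM (1 UMI in 7 cells). These point levels are above those of the pooled progenitor-like cells, but the counts are too few to rank them.

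Csf1r, the receptor of both ligands, lay in the macrophages. Macrophage-like cells carried 80.1% of its UMIs in kept CKO cells and 71.9% in wild-type cells. Csf1r (ENSMUSG00000024621, chromosome 18, 61100598 to 61132149, plus strand, with Hmgxb3 overlapping on the other strand) was at 736 CPM in CKO and 645 CPM in wild-type macrophage-like cells, a log2 ratio of 0.19 (interval 0.16 to 0.23). Monocyte-like cells, whose leading genes included the granule genes Prtn3, Mpo and Elane, had 520 CPM in the CKO (50 cells) and 405 CPM in the wild-type library (46 cells). The other 13 of the 15 types compared were all below 100 CPM in both libraries.

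Among macrophages, Csf1r and the Csf2 receptor chains ran in opposite directions. Resident perivascular macrophage-like cells (Lyve1, Cd163, Cbr2) had 1005 CPM of Csf1r in the CKO and 1071 CPM in the wild-type library, and lipid-associated macrophage-like cells (Gpnmb, Spp1, Ctsk) 502 and 480 CPM. The log2 ratio of lipid-associated over resident cells was -1.0 in the CKO and -1.16 in the wild-type library. For Csf2ra (ENSMUSG00000059326, chromosome 19, 61223957 to 61228429, minus strand) the lipid-associated cells were higher, with 306 CPM in the CKO and 291 CPM in the wild-type library, against 159 and 143 CPM in resident cells. Its log2 ratio of lipid-associated over resident cells was 0.94 in the CKO and 1.02 in the wild-type library. Csf2rb (ENSMUSG00000071713, chromosome 15, 78325752 to 78353847, plus strand) had the same order, with log2 ratios of 0.93 in the CKO and 0.43 in the wild-type library.

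**Figure D3:**
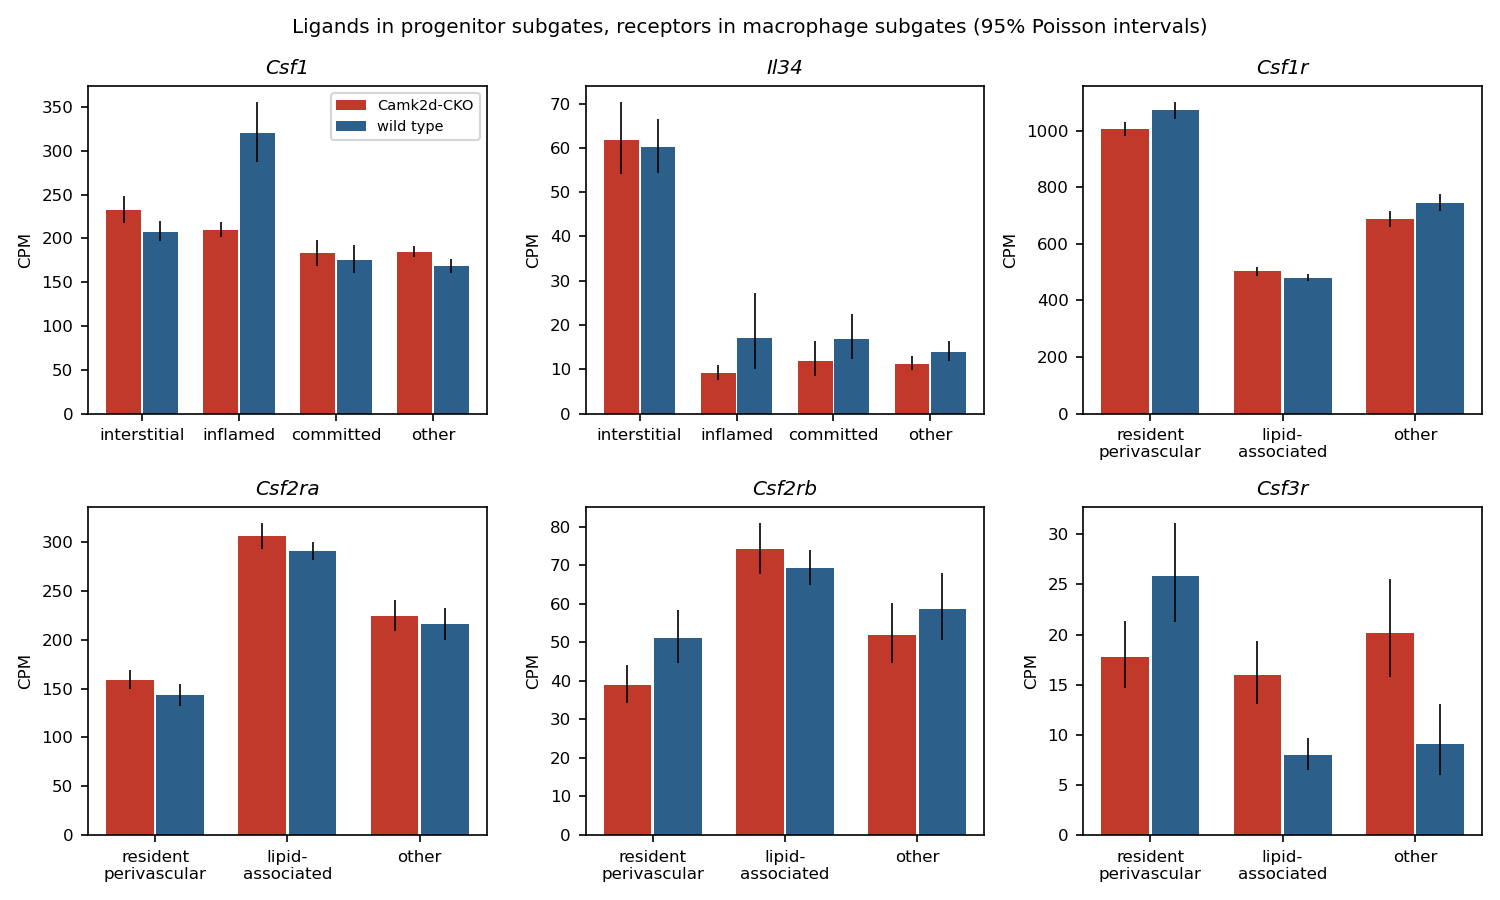
Csf1 and Il34 in 4 progenitor subgates and the receptors in 3 macrophage subgates (CPM, bars with 95% Poisson intervals), CKO left of wild type. Il34 stands at 61.9 and 60.2 CPM in interstitial cells, and Csf1r is higher in resident than in lipid-associated cells in both libraries while Csf2ra is lower.

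None of the receptors passed 1.5-fold between the libraries in macrophage-like cells as a whole: of 4 members with enough UMIs, 0 were higher and 0 lower, beside 3.58% of 7339 genes higher and 5.56% lower. Csf2ra was at 232 CPM in the CKO and 249 CPM in the wild-type library (log2 ratio -0.10) and Csf2rb at 55.8 and 63.9 CPM (log2 ratio -0.19). Of the macrophage-like cells, resident cells were 43.2% in the CKO and 26.4% in the wild-type library, and lipid-associated cells 28.9% and 48.8%. With both libraries at the wild-type mix, weighted by shares of UMIs, the log2 ratio was -0.02 for Csf1r, 0.08 for Csf2ra and -0.01 for Csf2rb. After thinning, Csf1r was seen in 75.7% of macrophage-like cells in the CKO and 68.7% in the wild-type library (92.5% and 88.2% at full depth); the shares for Csf2ra were 34.7% and 32.2% (75.6% and 64.1% at full depth). Both were seen in 25.1% of CKO and 21.5% of wild-type cells, close to the 26.3% and 22.1% given by the product of the shares.

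The Csf3r ratio ran in different directions by macrophage subgate, a difference that was not tested. Csf3r (ENSMUSG00000028859, chromosome 4, 126024550 to 126044440, plus strand) had 17.6 CPM in CKO and 11.9 CPM in wild-type macrophage-like cells, a log2 ratio of 0.56 (interval 0.31 to 0.81). Lipid-associated cells had 16 CPM in the CKO and 7.95 CPM in the wild-type library (log2 ratio 1.01, interval 0.60 to 1.41), where 3.47% of genes were higher by 1.5-fold. Macrophage-like cells outside both subgates had 20.2 and 9.05 CPM (log2 ratio 1.16), with 3.17% of genes higher. Resident cells had 17.8 CPM in the CKO and 25.9 CPM in the wild-type library (log2 ratio -0.54, interval -0.93 to -0.15), the opposite direction. The level was highest in neutrophil-like cells, with 1198 CPM in 26 CKO cells and 1247 CPM in 6 wild-type cells and a UMI in every cell of both. Monocyte-like cells had 45.5 and 47.2 CPM.

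Dendritic cells carried the Csf2 receptor chains, with far less Csf1r than macrophage-like cells. Csf2ra was at 154 CPM in CKO and 176 CPM in wild-type cDC1-like cells, the cross-presenting dendritic cells, at 190 and 257 CPM in cDC2-like cells and at 128 and 107 CPM in migratory dendritic-like cells. Csf2rb was at 124 and 116 CPM in cDC1-like cells, 110 and 100 CPM in cDC2-like cells and 271 and 213 CPM in migratory cells. Csf1r had 25.4 CPM in CKO and 55.3 CPM in wild-type cDC1-like cells, and free RNA made up an estimated 12.7% and 74.7% of those levels. In cDC2-like cells it had 46.1 and 76.9 CPM, with free RNA at 4.08% and 60.3%. Subtracting the estimate left 46.0 and 39.7 CPM there. Migratory cells had 39.3 and 58.7 CPM of Csf1r, with free RNA at 12.5% and 86.5%. Of the 15 types, monocyte-like cells had the highest Csf2ra level, 261 CPM in the CKO and 311 CPM in the wild-type library.

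Csf2rb was highest in mast-like cells and was also counted in endothelial and B cells. Mast-like cells had 842 CPM in the CKO (54 UMIs in 34 cells) and 305 CPM in the wild-type library (18 UMIs in 23 cells), a log2 ratio of 1.47 (interval 0.67 to 2.32) in a type where 20.6% of 533 genes were higher by 1.5-fold. Of these UMIs, 28 of the CKO and 15 of the wild-type counts lay in the 3 highest cells. The mast-like log2 ratio was 0.76 after free RNA was subtracted and 2.12 with cells taken from clusters. Blood endothelial-like cells had 137 CPM in the CKO and 194 CPM in the wild-type library (log2 ratio -0.50, interval -0.87 to -0.13), with 126 UMIs in each. B-like cells had 34.2 and 61.0 CPM (log2 ratio -0.83, interval -1.22 to -0.46), where 11% of genes were lower by 1.5-fold. In ILC2-like cells 0 UMIs of Csf2rb were counted in either library, a limit of 16.5 CPM in the CKO and 19.1 CPM in the wild-type cells. The near-identical gene Csf2rb2 shared 0 of 451 windows of 50 bases with the last 500 bases of Csf2rb, the part that 3′ libraries count, and 18.4% of windows along the whole transcript.

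In lymphoid and stromal types, Csf1r and Csf2ra were lower in the CKO library, beside lower levels of transcripts of myeloid cells. In progenitor-like cells 3 of 4 members with enough UMIs were lower and 0 higher, beside 6.97% of 7967 genes lower and 3.25% higher; the 3 were Il34, Csf1r and Csf2ra. Csf1r was at 9.87 CPM in CKO and 35.9 CPM in wild-type progenitor-like cells, at 14.0 and 52.0 CPM in T-like cells and at 6.11 and 38.8 CPM in B-like cells. Lyz2, the lysozyme gene of myeloid cells, was at 110 CPM in CKO and 341 CPM in wild-type progenitor-like cells, a log2 ratio of -1.63 beside -1.86 for Csf1r. Free RNA was an estimated 60.1% of the CKO and 107% of the wild-type Csf1r level in these cells, and 112% of the wild-type level in T-like and B-like cells alike. Csf1r was seen in 1.87% of CKO and 7.65% of wild-type progenitor-like cells after thinning, and in 8.97% and 20.7% without. Lyz2 was also lower in B-like cells (log2 ratio -1.45 beside -2.67 for Csf1r) and NK-like cells (-1.60 beside -1.43). Over a panel of myeloid transcripts the log2 ratio was -1.73 in progenitor-like, -1.47 in T-like, -0.76 in B-like and -0.17 in NK-like cells. How close these ratios came to that of Csf1r thus differed by type. How much of the Csf1r differences free RNA makes up was not tested beyond subtracting the free RNA estimate. Csf1r was also lower by 1.5-fold in T-like cells (11% of genes lower), NK-like cells (10.8%), gamma delta T-like cells (12.3%), B-like cells, mesothelial-like cells (10.8%; interval of the log2 ratio -1.66 to 0.21) and erythroid-like cells, where 88.4% of genes were lower. It was lower in cDC1-like cells (11.4% of genes lower) and cDC2-like cells (10.7%; interval -1.71 to 0.22) as well, and in the interstitial (6.34%), committed (9.16%), inflamed and remaining progenitor-like cells (6.6%). Subtracting the free RNA estimate ended the lower Csf1r call in every one of these types and subgates. The log2 ratio turned positive in cDC1-like (0.43), cDC2-like (0.21), gamma delta T-like (1.30) and mesothelial-like cells (0.57). In the other 9 the wild-type level became 0 with the CKO level above it, as in T-like (11.1 CPM left in the CKO), B-like (1.39), NK-like (13.3), erythroid-like (26.5) and progenitor-like cells (4.47). In these 9 the estimate exceeded the whole wild-type Csf1r level (139% of it in NK-like and 118% in erythroid-like cells). The call therefore had to end there whatever the cells expressed, and the subtraction cannot decide how much of the difference is free RNA. The Csf2ra ratio in progenitor-like cells became 0.11. In erythroid-like cells the Csf1r ratio was 0.081 with median-of-ratios scaling.

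**Figure D4:**
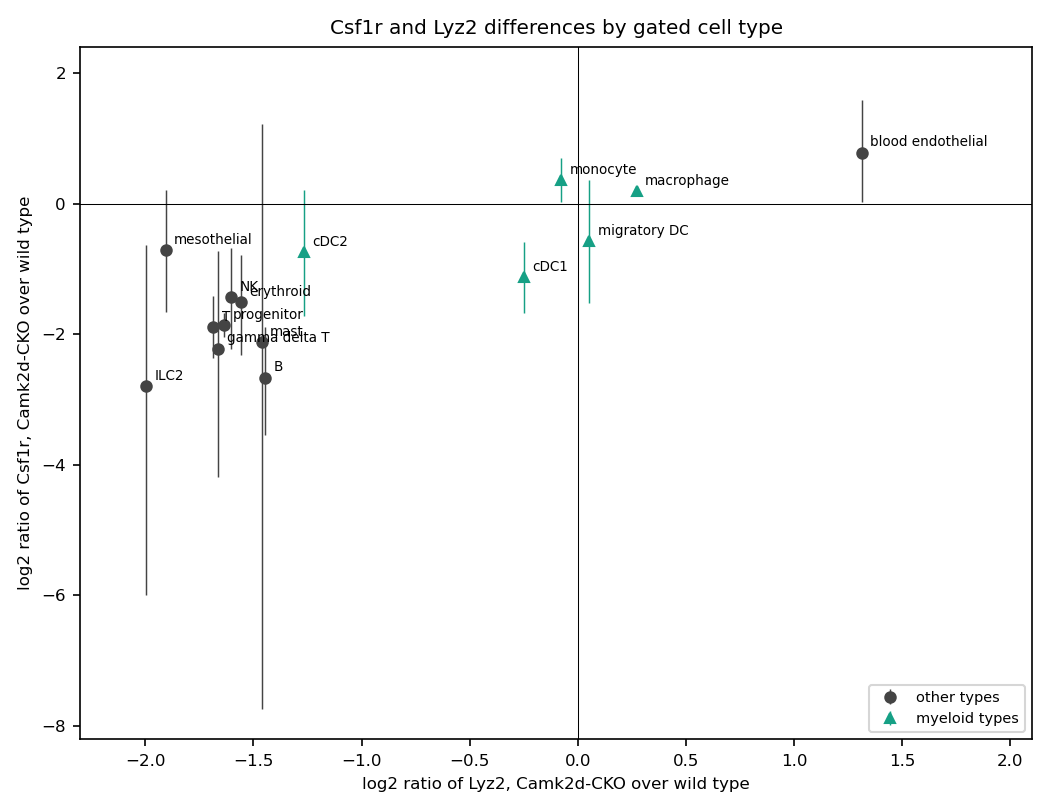
Log2 ratio of Csf1r, CKO over wild type, against that of Lyz2 in each gated type; circles are non-myeloid and triangles myeloid types, and bars are 95% intervals of Csf1r. Every non-myeloid type but the blood endothelial-like cells lies below 0 on both axes, and those cells lie above 0 on both (1.31 for Lyz2 and 0.78 for Csf1r).

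Blood endothelial-like cells ran the other way. Csf1r was at 55.5 CPM in the CKO and 32.3 CPM in the wild-type library, and Lyz2 at 912 and 367 CPM. Of the 51 CKO Csf1r UMIs, 33 lay in 3 of 113 cells, and 6 of the 21 wild-type UMIs lay in 3 of 104 cells. The log2 ratio was 0.78 (interval 0.02 to 1.59). It became -0.37 under the gate with less tolerance for other lineages and -0.86 as a mean over cells. Its direction thus depended on the gate and on the summary. In this type 6.93% of 6206 genes were higher by 1.5-fold.

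The wider pathway was a list of 49 genes of the ligands, receptors, adaptors, JAK-STAT arm and transcription factors. In macrophage-like cells 36 of them had enough UMIs, of which 5 were higher and 1 was lower, beside 3.58% of all genes higher and 5.56% lower. Their median log2 ratio was 0.09, beside -0.10 over all genes. The 5 were Socs3 (350 CPM in the CKO and 219 CPM in the wild-type library), a feedback inhibitor of cytokine signalling, the kinase gene Pim1 (511 and 306 CPM) and the transcription factor genes Cebpb (742 and 326 CPM), Maf (453 and 286 CPM) and Egr2 (261 and 153 CPM). Sdc1, a binding partner of Il34, was lower at 23.2 and 39.7 CPM. Maf, Egr2 and Sdc1 were counted as higher or lower in no macrophage subgate, nor in macrophage-like cells outside the subgates. Cebpb was higher in lipid-associated, resident and remaining macrophage-like cells, Pim1 in lipid-associated and remaining cells, and Socs3 in lipid-associated cells only. The mix of macrophage subgates differed between the libraries, and its part in these pooled differences was not tested. In progenitor-like cells 34 had enough UMIs, with 4 higher and 8 lower, beside 3.25% of all genes higher and 6.97% lower. Socs3 (1619 and 834 CPM), Pim1 (301 and 186 CPM), Cebpb (658 and 290 CPM) and Cish (18.1 and 8.43 CPM) were higher. Socs3 and Cebpb were counted as higher in every progenitor subgate and in the remaining progenitor-like cells. By contrast, Pim1 was so counted in the committed subgate only, and Cish in the remaining cells only. The part of the progenitor subgate mix in these pooled differences was not tested. Cebpb and Pim1 were not particular to macrophages and progenitors. Both were also higher in monocyte-like, ILC2-like and blood endothelial-like cells. Cebpb was higher too in migratory dendritic-like, NK-like, T-like, gamma delta T-like, B-like and mesothelial-like cells. In erythroid-like cells both were lower. Besides the 3 members, the lower genes included Sdc1 (11.8 and 27.3 CPM) and the myeloid genes Tyrobp, Spi1 and Irf8. Spi1, which encodes PU.1, was at 5.30 and 31.5 CPM in progenitor-like cells and at 352 and 387 CPM in macrophage-like cells.

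Ligands of the other receptors were sparse. Csf2, the ligand of Csf2ra and Csf2rb, was at 280 CPM in CKO (51 UMIs) and 76.3 CPM in wild-type ILC2-like cells (12 UMIs), a log2 ratio of 1.88 (interval 0.95 to 2.92), in a type where 17.9% of 1332 genes were higher by 1.5-fold. It was seen in 12 of 35 CKO and 9 of 42 wild-type ILC2-like cells, with 29 of the 51 CKO UMIs in 3 cells. Il5, which signals through Csf2rb, was at 379 and 140 CPM in the same cells, but it is also a marker of their gate. Csf3, the ligand of Csf3r, had 39 UMIs in CKO and 6 UMIs in wild-type progenitor-like cells (1.04 and 0.30 CPM). Of these, 37 of the CKO and 0 of the wild-type UMIs lay in the inflamed subgate (1069 and 142 cells). The part of the subgate mix in that difference was not tested. Macrophage-like cells had 25 and 34 UMIs of Csf3 (1.51 and 1.66 CPM). Il3 had 0 UMIs in macrophage-like, mast-like, ILC2-like and progenitor-like cells of both libraries.

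The genes whose levels ran most like each member over 30 points (15 types in 2 libraries) were found among 8371 genes, with gate markers left out. Among the closest for Csf1 were Crispld2 (Pearson r 0.86), Podn and Meis2, and for Il34 Armh4 (0.95), Cdc42ep5 and Fkbp14. For Csf1r they were Lyz2 (0.91), Ccl6 and Lgmn, and for Csf2ra Tnip3 (0.95), Alcam and Clec4b1. For Csf2rb they were its paralog Csf2rb2 (0.90), Cbfa2t3 and Pip5k1c, and for Csf3r Fcgr1 (0.88) and Dpep2. Neutrophil-like cells, where Csf3r was highest, were not among the 15 types. The points share libraries and free RNA, so these values are descriptions.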

How the data were processed

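Deposited UMI counts per gene and barcode, 1 matrix for each library, were used as the authors deposited them. Per the submitters' processing notes Cell Ranger 5.0.0, Seurat 4.1.1 and mm10 were used; strand setting and annotation version are not given in the sources used here. Barcodes with at least 500 UMIs, 200 genes and at most 20% mitochondrial UMIs passed, and those with a Scrublet score above 0.25 were removed (435 CKO, 478 wild-type); the automatic threshold called 313 and 0. Cells were clustered with scanpy 1.11.5 (2000 genes, 30 components, Leiden resolution 1.0) for the alternative by clusters only.

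Each cell took the type with the highest mean marker score (square root of depth-scaled counts, relative to each marker's 99.9th percentile) at a score of at least 0.2, 3 detected markers and other lineages at most 0.5 of it. Subgates needed 1.25 times the next score. UMIs were summed per type and library. Intervals are exact Poisson (levels), exact conditional (ratios) and Clopper-Pearson (shares) at 95%. The limit set for a count of 0 was 3 counts. Free RNA was estimated with the profile of the shallowest cluster without a type in each library (694 CKO barcodes, 2594 wild-type barcodes) and panels of transcripts of other lineages. Of these barcodes, 69.6% in the CKO and 89.4% in the wild-type library took no type, so the profile may include cells, which was not tested. The estimate also varied over the panel. In NK-like cells its quartiles were 4.04% and 26.8% of UMIs in the CKO, and 27.3% and 34.1% in the wild-type library. TMM factors came from edgeR 4.0.16. The computations were tested on simulated data.

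The named genes are the 6 members, the pathway genes past 1.5-fold in macrophages and progenitors, and the 3 genes most like each member; Csf2, Il5, Csf3 and Il3 were chosen after their values were seen, and some genes that this rule names are not reported here. Members and lists were chosen with earlier results of these data known, and the scoring rule of the gate, the free RNA panels and the weighting by subgate mix were chosen after seeing the data. With 1 library per genotype, no test between genotypes was made.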

Additional observations from a re-analysis of the deposited data

Results flagged for a closer look

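Csf1r differed between the libraries in the opposite direction to macrophage-like cells, or by an amount outside the macrophage-like interval, in several types. The log2 ratio of CKO over wild type was -1.12 in cDC1-like, -1.43 in NK-like, -1.89 in T-like, -2.67 in B-like and -1.51 in erythroid-like cells. In progenitor-like cells it was -1.86, with -1.44 in the interstitial, -1.55 in the inflamed and -1.54 in the committed subgate and -2.18 in the remaining cells. It was 0.78 in blood endothelial-like cells, where the interval of 0.02 to 1.59 held the macrophage-like ratio of 0.19. The direction in those cells depended on the gate and on the summary. With free RNA subtracted, cDC1-like cells had 23.7 CPM in the CKO and 17.6 CPM in the wild-type library. The wild-type level was then set to 0 in each of the other types and subgates just named, because the estimate exceeded it. The CKO library kept 13.3 CPM in NK-like, 11.1 in T-like, 1.39 in B-like, 26.5 in erythroid-like, 4.47 in progenitor-like and 57.4 in blood endothelial-like cells. The unsubtracted ratios stand beside 0.19 in macrophage-like cells, and the difference between types was not tested. Erythroid-like cells had 88.4% of 4038 genes lower by 1.5-fold in the CKO library.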

How the results depend on the processing

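No paired analysis was possible because each genotype has 1 library, and leaving out a replicate was not possible for the same reason. Removing no doublets left all 67 ratios of members inside their intervals, and a stricter cell filter all 64 of those available. Ratios moved outside their intervals, with no change of sign in a called ratio, in 13 of 67 with TMM scaling, 5 of 67 with median-of-ratios scaling, 11 of 67 as a mean over cells, 8 of 66 under the stricter gate and 12 of 51 with free RNA subtracted. With cells taken from clusters, 16 of 59 ratios and source shares moved. All 6 shares of cells checked moved at 1000 UMIs and without thinning.

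The Csf1 log2 ratio in progenitor-like cells (0.06) was 0.12 as a mean over cells, 0.12 with median-of-ratios scaling, 0.22 with TMM scaling, -0.076 with free RNA subtracted and -0.16 at the CKO mix of subgates. Il34 in progenitor-like cells (-0.89) was -0.10 at the wild-type and -0.34 at the CKO mix, and in interstitial cells (0.04) it was 0.35 by clusters. Csf1r in macrophage-like cells (0.19) was 0.14 under the stricter gate, 0.12 as a mean over cells, 0.25 with median-of-ratios scaling, 0.33 with TMM scaling, 0.041 with free RNA subtracted, and -0.019 and -0.055 at the wild-type and CKO mixes. Csf2ra there (-0.10) was 0.032 as a mean over cells, -0.038 and 0.041 with those scalings, -0.21 with free RNA subtracted, and 0.080 and 0.089 at the mixes. Csf2rb there (-0.19) was -0.034 by clusters, -0.053 with TMM scaling and -0.012 at the wild-type mix, and Csf3r (0.56) was 0.21 at the CKO mix. The mixes were added after seeing the data.

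Ratios past 1.5-fold that changed sign were Il34 in inflamed cells by clusters (0.014) and Csf1r in blood endothelial-like cells under the stricter gate (-0.37) and as a mean over cells (-0.86). In erythroid-like cells they were Csf1r (0.081) and Csf2ra (0.48) with median-of-ratios scaling and Csf2ra with TMM scaling (0.18). With free RNA subtracted, 51 of the 67 ratios had a value, and among these the sign changed for Csf1r in cDC1-like (0.43), cDC2-like (0.21), gamma delta T-like (1.30) and mesothelial-like cells (0.57), and Csf2ra in B-like (1.64), progenitor-like (0.11) and interstitial cells (0.24). In the other 16 the estimate exceeded the wild-type level, which was set to 0 with CKO above it. This also ended 9 lower calls of Csf1r and 5 of Csf2ra, whatever the cells expressed. The cause was not tested.

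Of pathway genes in macrophage-like cells, 1 was higher and 0 were lower at 2-fold, and 5 were lower with no floor on UMIs. In progenitor-like cells 2 were higher at 2-fold, and 7 were higher and 18 lower with no floor. TMM scaling moved all log2 ratios by 0.14 in macrophage-like and 0.17 in progenitor-like cells. Depth limits the mast-like, ILC2-like and neutrophil-like values, which rest on few cells, and no spread between animals can be given.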
